A study of Mus musculus with 22 samples.

Results

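Transcripts of 9 homing receptors of B cells were followed in a murine leukemia line with a disrupted NFKBIE gene (NFKBIE-ko) and in its mock-transfected counterpart (NFKBIE-wt). The receptors were taken by name: the chemokine receptors Cxcr4, Cxcr5, Ccr7, Ccr6 and Cxcr3, the sphingosine-1-phosphate receptor S1pr1, the integrin chains Itga4 and Itgb7, and Cd44. They are 9 of the 17023 genes of the table, and the counts of all transcripts that GENCODE assigns to each gene were summed.

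B lymphocytes enter and leave tissues by reading chemokine and lipid gradients through receptors that signal to Gi proteins, and by holding on to vessel walls and matrix through integrins and Cd44. CXCR4 answers to CXCL12 of stromal cells, CXCR5 to CXCL13 of B-cell follicles, CCR7 to CCL19 and CCL21 of T-cell zones, CCR6 to CCL20 and CXCR3 to the interferon-induced CXCL9 and CXCL10, whereas S1PR1 draws cells towards blood and lymph. The integrin α4 chain pairs with β1 to bind VCAM1 and fibronectin and with β7 to bind MADCAM1, and CD44 binds hyaluronan. NFKBIE encodes IκBε, an inhibitor that holds NF-κB dimers in the cytoplasm.

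The line was TCL1-355 TKO, made from leukemia cells of an Eμ-TCL1 transgenic mouse, in which the TCL1 oncogene is driven in B cells. Shared by all groups were the loss of CDKN2A and of CDKN2B and a B-cell receptor that binds phosphatidylcholine. NFKBIE-ko cells had been transfected with Cas9 ribonucleoprotein directed to exon 2 of the gene, and NFKBIE-wt cells with Cas9 without cr-RNA. Cells of each genotype were grown for 21 days in 1 C57BL/6 mouse, injected into the peritoneum of 5 C57BL/6 recipient mice per genotype and recovered after 10 days.

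The 22 libraries fall into 6 groups: NFKBIE-wt and NFKBIE-ko cells from the spleen (4 libraries each), from the peritoneal cavity (PC; 4 each) and from cultures (in vitro; 3 each) of cells taken from spleens of 3 different mice and kept apart for 2 weeks. Because each genotype was propagated in a single donor mouse, that passage and the genotype cannot be told apart. Neither spleen nor PC cells had been purified, so that the libraries hold RNA of the recipient's cells as well. Below, NFKBIE-wt or NFKBIE-ko cells of a tissue means the whole sample, named for the genotype of the injected leukemia cells. A lower value in such bulk samples may come from fewer cells of a type or from less RNA per cell, and these cannot be told apart. Spleen and PC cells were recovered from the same recipient mice, but which spleen and PC libraries came from the same mouse was not stated.

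Total estimated counts per library lay between 24036763 and 26581304. Levels are given as CPM, counts scaled to library sizes that TMM had adjusted. Nfkbie transcripts, which an edited exon need not lower, ranged over 70.9 to 124 CPM in NFKBIE-wt and 54.2 to 120 CPM in NFKBIE-ko spleens, over 67.3 to 91.2 and 47.2 to 64.9 CPM in the PC, and over 54.3 to 141 and 48.2 to 59.9 CPM in vitro. The values 124 CPM (spleen) and 54.3 CPM (in vitro) in NFKBIE-wt cells are those of spleen replicate 4 and culture replicate 3, described next.

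Over 11550 genes, 18 of 22 libraries correlated best with their own group and 4 with another. The library labelled NFKBIE-wt spleen replicate 4 correlated with the other NFKBIE-wt spleens at r = 0.948 and with the NFKBIE-wt cultures at r = 0.988. For the library labelled as culture replicate 3 of NFKBIE-wt, r was 0.937 with the other NFKBIE-wt cultures and 0.985 with the NFKBIE-wt spleens. The other NFKBIE-wt cultures, replicates 1 and 2, were closer to the NFKBIE-ko cultures (r = 0.974 and 0.989) than to their own group (0.971 and 0.957), which holds replicate 3. Transcripts of red cells, which a culture should lack, summed to 6.89 CPM in spleen replicate 4 and 1441 CPM in culture replicate 3, against 284 to 2045 CPM in the other NFKBIE-wt spleens and 12.1 to 20.7 CPM in the other NFKBIE-wt cultures. Spleen replicate 4 and culture replicate 3, here called the doubted libraries, were kept in the group of their label, and tests between genotypes or within NFKBIE-wt cells are also given without them. In the lists of values that follow, libraries stand in the order of their replicate numbers, so that these 2 are the last NFKBIE-wt value of the spleen and of the cultures.

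Scaled for transcript length, which makes levels comparable between genes, Cxcr4 was the most abundant receptor, with a mean of 344 TPM (transcripts scaled per length and depth) over the 22 libraries. Cd44 averaged 117, Cxcr5 92.0, Itgb7 76.8, S1pr1 59.4, Itga4 55.1 and Ccr7 35.3 TPM. The levels of Cxcr3 and Ccr6 were far lower, with means of 2.30 and 0.162 TPM. This order did not hold within each group: in NFKBIE-ko cells of the PC, Cxcr5 (183 TPM) and Itgb7 (171 TPM) averaged more than Cd44 (139 TPM).

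Most calls between the genotypes fell in the PC. There, transcripts of Itgb7, Cxcr3, S1pr1, Cxcr5 and Ccr7 were higher and those of Cxcr4 lower in NFKBIE-ko than in NFKBIE-wt cells, whereas Itga4 and Cd44 did not pass the test. In the spleen, Ccr7 alone passed. A gene was called when its Benjamini-Hochberg adjusted p from edgeR's quasi-likelihood test, adjusted over all genes tested, was below 0.05. Ccr6 was below the filter on low counts, so that 8 of the 9 receptors were tested.

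In the PC, 6 of 8 receptors were called (5 higher and 1 lower in NFKBIE-ko), where 43.4% of all 12642 genes tested were called. In the spleen, 1 of 8 was called, against 5.43% of genes, and 3 of 8 without replicate 4, against 12.2%. In vitro, edgeR called 0 of 8, against 0.0341% of genes, and without replicate 3 again 0 of 8, against 0.0759%. At an unadjusted p below 0.05 there were 3 receptors in vitro (1124 of 11722 genes) and 4 without replicate 3 (1187 of 11865 genes). DESeq2 called 1 receptor and 222 genes. Without NFKBIE-wt culture replicate 2, edgeR called 2 receptors and 785 genes in vitro, and without NFKBIE-wt replicate 1 or any single NFKBIE-ko culture it called 0 of both. The median log2 difference over the 8 receptors was 0.17 for spleens, 0.37 for the PC and -0.42 for cultures, beside -0.01, -0.01 and -0.02 over all genes tested.

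**Figure D1:**
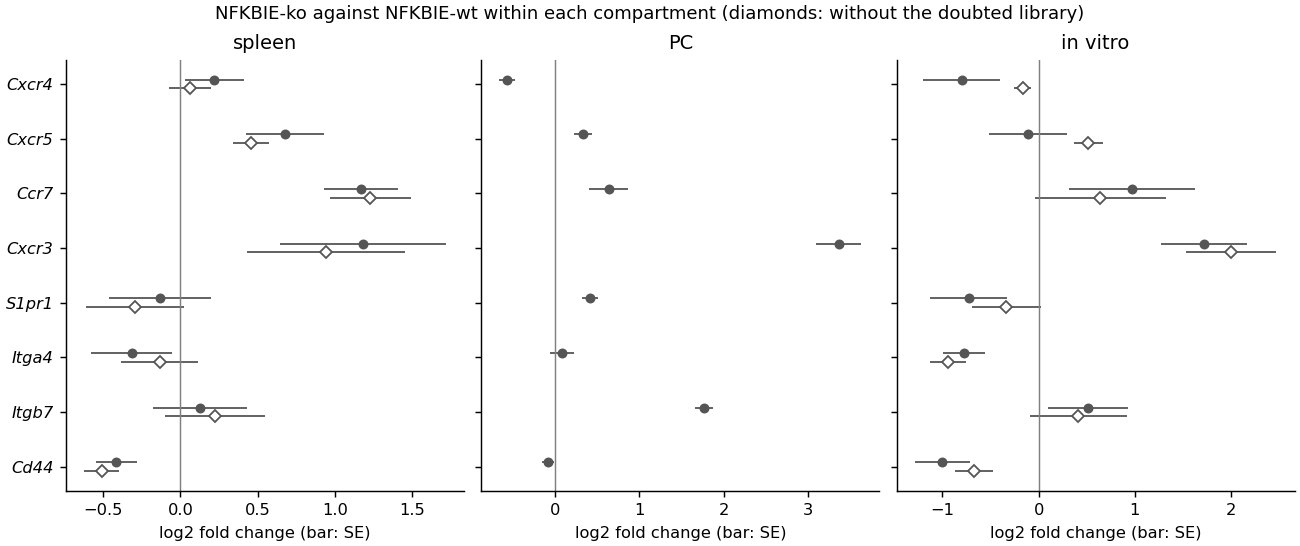
Log2 fold change of NFKBIE-ko against NFKBIE-wt libraries for 8 receptors in spleens, PC and cultures (x axis, log2 scale), with bars for the standard error; open diamonds leave out the doubted library. In the PC, Cxcr3 (3.37) and Itgb7 (1.76) lie farthest to the right and Cxcr4 (-0.57) to the left.

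Between compartments, each genotype was tested by itself. Between PC and spleen, 7 of 8 receptors were called in NFKBIE-ko cells (51.1% of genes; without both doubted libraries 57.8%), with Cxcr5, Cxcr3, S1pr1, Itga4, Itgb7 and Cd44 higher and Cxcr4 lower in the PC. In NFKBIE-wt cells 2 of 8 were called, Cxcr5 and Itga4, both higher in the PC (35.5% of genes), and 3 without both libraries, with Cxcr4 lower (38.9%). In that fit of 20 libraries Ccr6 passed the filter too and was called in none of the comparisons.

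Between spleen and cultures, Cxcr4, Cxcr5 and Cd44 were higher in NFKBIE-ko spleens (3 of 8, against 30.3% of genes; without both libraries the same 3, against 39%). In NFKBIE-wt cells edgeR called 0 receptors and 0% of genes, with 0 receptors and 1059 genes at an unadjusted p below 0.05, while DESeq2 called 21 genes and 0 receptors. Without both libraries Cxcr4, Cxcr5 and Cd44 were higher in NFKBIE-wt spleens as well (3 receptors, against 26.2%). Between PC and cultures 7 of 8 receptors were called in NFKBIE-ko (48% of genes) and 2 of 8 in NFKBIE-wt cells (34.1%). Without both libraries these were 8 (52.9%) and 4 (42.9%).

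**Figure D2:**
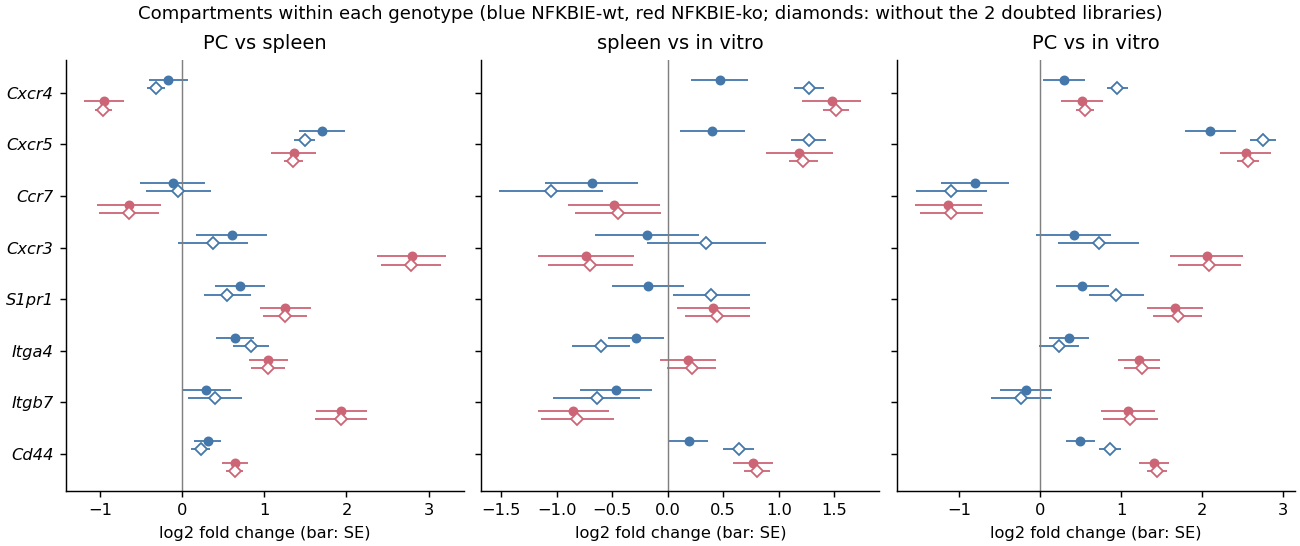
Log2 fold change between compartments (x axis, log2 scale) for 8 receptors in NFKBIE-wt (blue) and NFKBIE-ko cells (red), with bars for the standard error; open diamonds leave out both doubted libraries. For PC against spleen, Cxcr3 (2.79) and Itgb7 (1.93) in NFKBIE-ko cells lie to the right of the NFKBIE-wt points (0.60 and 0.29), and in the panel of spleen against in vitro the blue diamonds of Cxcr4 and Cxcr5 lie at 1.27.

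A test of whether the effect of NFKBIE-ko differed between compartments was made in 1 fit of all 22 libraries. Between spleen and PC it called Cxcr3 and Itgb7 (2 of 8, against 4.92% of genes), and without both libraries also Cxcr4 (3 receptors, against 8.25%). Between spleen and cultures it called 0 of 8 (0.443% of genes), and 0 without both libraries (0.938%). At an unadjusted p below 0.05 there were 2 receptors and 2156 of 13537 genes, and DESeq2 called 0 receptors and 797 genes. Between PC and cultures the edgeR test called Cd44 (1 of 8, against 4.8%) and 0 receptors without both libraries (6.12%).

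Markers of other cells moved with these comparisons. Transcripts of 17 myeloid markers summed to 638 to 1919 CPM in NFKBIE-wt and to 4059 to 5973 CPM in NFKBIE-ko libraries of the PC, with 13 of 17 called higher and 1 lower. In the spleen the same sum ranged from 29.0 to 96.5 CPM in NFKBIE-wt (73.0 to 96.5 CPM without replicate 4) and from 103 to 401 CPM in NFKBIE-ko libraries, with 1 of 14 tested called. Markers of CD8+ cytotoxic and NK cells summed to 4.29 to 22.3 CPM in NFKBIE-wt (16.0 to 22.3 CPM without replicate 4) and 72.5 to 166 CPM in NFKBIE-ko spleens, and to 23.3 to 57.4 and 56.0 to 100.2 CPM in the PC. B-lineage markers summed to 1929 to 2416 CPM in NFKBIE-wt and 1783 to 2266 CPM in NFKBIE-ko spleens, and to 3231 to 3459 and 3760 to 3924 CPM in the PC. Granulocyte markers went the other way in the PC, at 162 to 472 CPM in NFKBIE-wt and 31.4 to 48.1 CPM in NFKBIE-ko libraries, with 6 of 8 called lower. T-cell markers summed to 345 to 412 and 392 to 497 CPM in the PC (9 of 16 higher, 2 lower) and stromal and endothelial markers to 97.1 to 132 and 198 to 219 CPM (4 of 8 higher, 4 lower). In the spleen 4 of 6 plasma-cell and 1 of 10 B-lineage markers were lower, and 2 of 17 T-cell markers higher, in NFKBIE-ko libraries. Plasma-cell markers summed to 942 to 1639 CPM in NFKBIE-wt (942 to 1461 CPM without replicate 4) and to 953 to 1157 CPM in NFKBIE-ko spleens. All marker calls of the spleen in this paragraph come from the fit that holds replicate 4. The marker calls stand beside 43.4% of all genes tested called in the PC and 5.43% in the spleen. The part of the cell types of these lists in the receptor values was not tested. In NFKBIE-ko cultures 9 of 17 myeloid, 6 of 15 CD8+ cytotoxic and NK, 5 of 17 T-cell and 6 of 10 granulocyte markers were at 0 in all 3 libraries, including Cd8a, C1qa, Trbc1 and S100a8, while Cxcr4, Cxcr5, Ccr7, S1pr1, Itga4, Itgb7 and Cd44 each stood at 41.2 CPM or more. Other markers of these lists were present in the same cultures. T-cell markers summed to 238 to 301 CPM there and myeloid markers to 37.5 to 46.6 CPM. The CD8+ cytotoxic and NK sum was 3.72 to 5.37 CPM and the granulocyte sum 0.21 to 0.45 CPM.

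**Figure D3:**
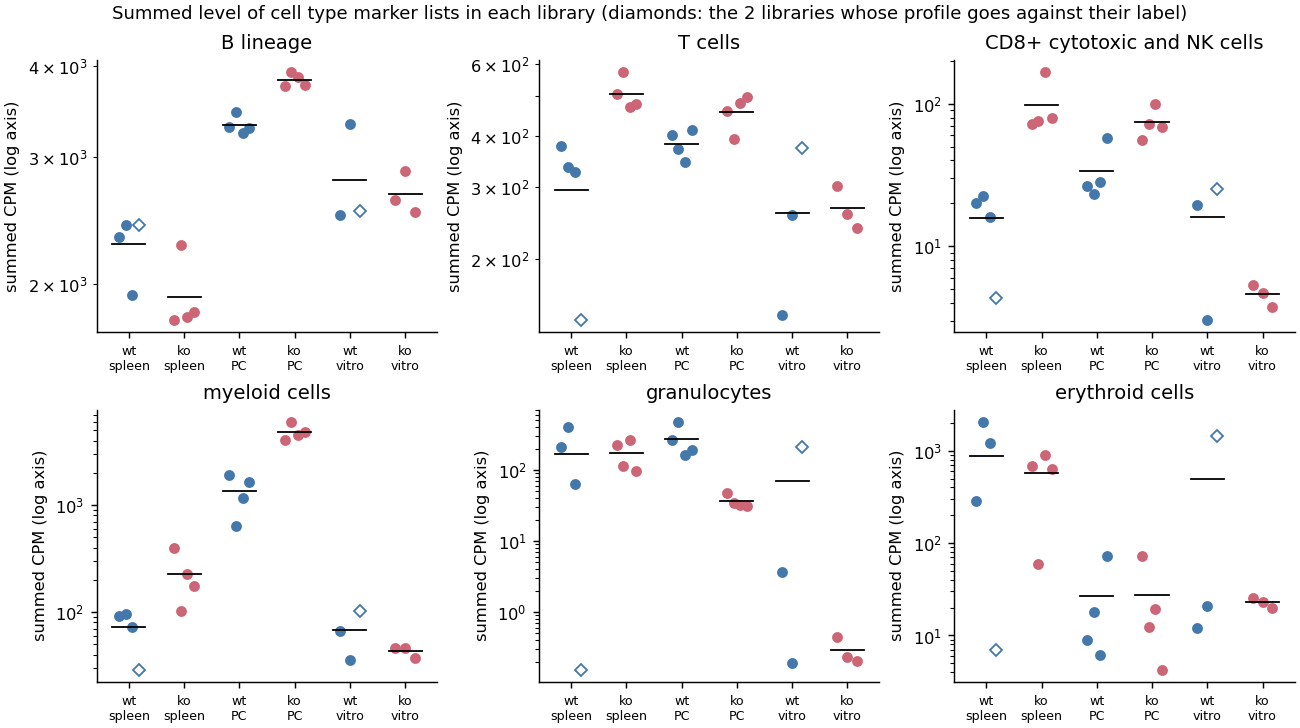
Summed CPM (y axis, log scale) of marker lists for 6 cell types in each library (points; diamonds for the 2 doubted libraries), with a line at each group mean. The myeloid sum is highest in NFKBIE-ko libraries of the PC (4059 to 5973 CPM), and each diamond lies apart from its own group in the granulocyte and erythroid panels.

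When libraries were scaled to the summed B-lineage markers in place of all genes, the median of all genes moved by 0.25 (log2) for the genotypes in spleens, by -0.20 in PC cells and by 0.05 in cultures, and for PC against spleen by -0.56 in NFKBIE-wt and -1.01 in NFKBIE-ko cells. The B-lineage sum was 3231 to 3924 CPM in the PC, 1783 to 2416 CPM in spleens and 2493 to 3330 CPM in cultures. Whether it follows the share of B cells or the marker level per cell was not tested, so this scaling is no correction for cell makeup. With that scaling, 2 receptors were called higher (Cxcr3 and Itgb7) and 2 lower (Cxcr4 and Cd44) in NFKBIE-ko cells of the PC. There 7071 of 12642 genes were called. The calls of Cxcr5 (0.13, adjusted p = 0.333), Ccr7 (0.44, adjusted p = 0.146) and S1pr1 (0.22, adjusted p = 0.0836) in the PC were lost. For PC against spleen in NFKBIE-ko cells, 10161 of 13537 genes were called with that scaling. Among the receptors, Cxcr3 (1.82) and Itgb7 (0.97) were called higher and Cxcr4 (-1.96) and Ccr7 (-1.66) lower in that comparison. Its values for Cxcr5 (0.35), S1pr1 (0.31), Itga4 (0.05) and Cd44 (-0.36) were not called. Cd44 thus had another sign under each scaling. Of all genes called, the share that was higher moved with the scaling from 42.4% to 79.8% for the genotypes in spleens and from 51.9% to 27.7% in the PC. For PC against spleen it moved from 44.6% to 10.8% in NFKBIE-wt and from 49.0% to 10.5% in NFKBIE-ko cells, for PC against cultures from 42.2% to 17.7% and from 50.1% to 21.2%, and for NFKBIE-ko spleens against cultures from 55.7% to 92.4%.

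**Figure D4:**
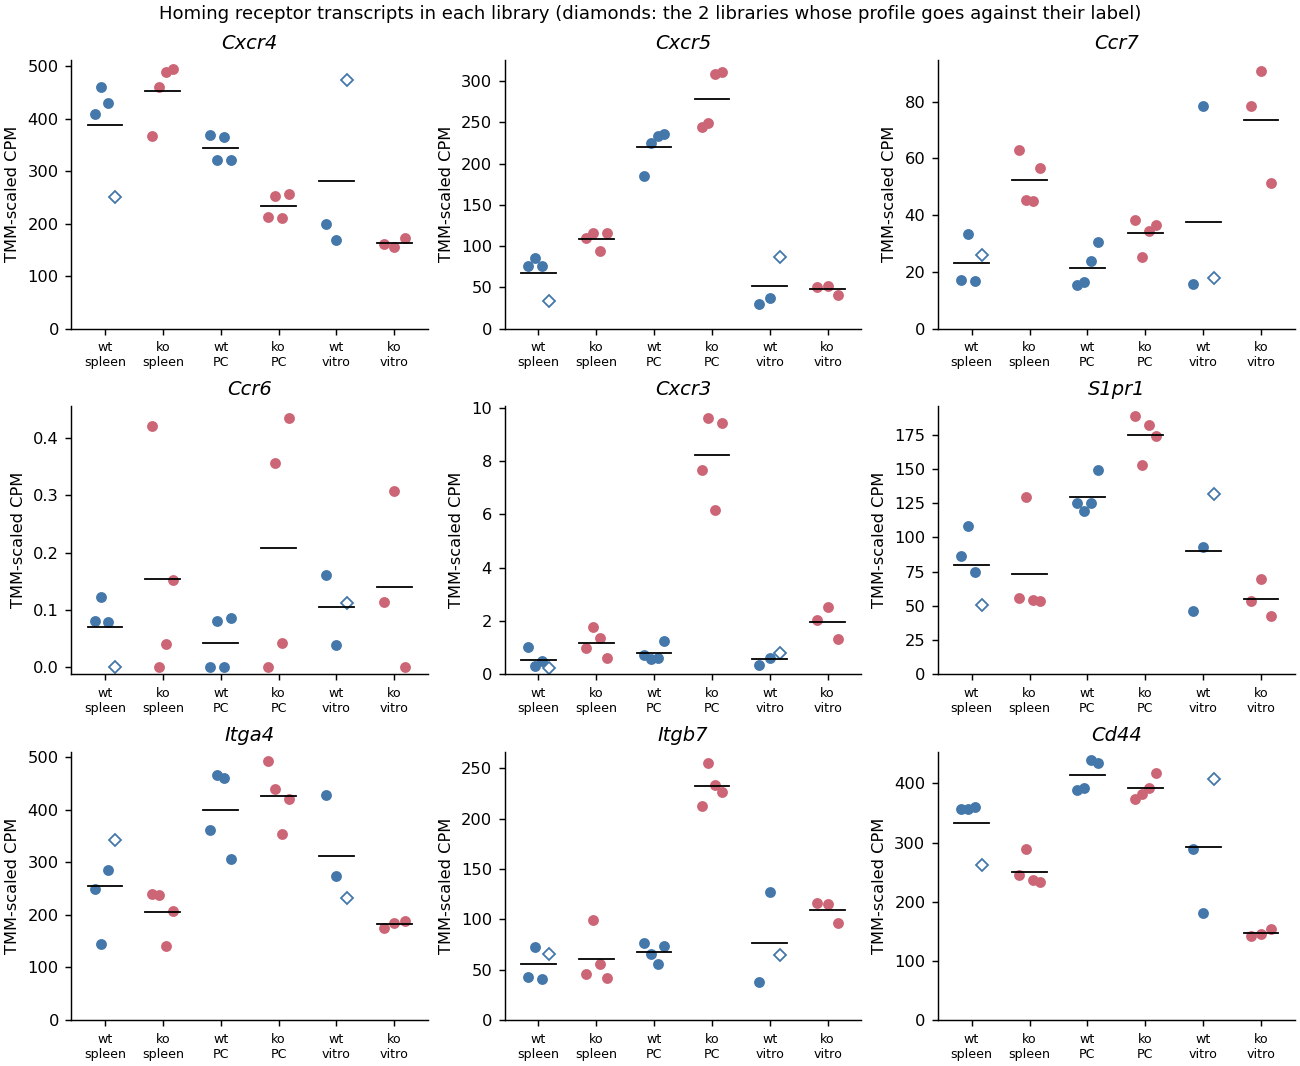
TMM-scaled CPM (y axis, linear) of the 9 receptors in each library, by group (x axis), with blue points for NFKBIE-wt, red for NFKBIE-ko, lines for group means and diamonds for the 2 doubted libraries. Cxcr3 (6.16 to 9.61 CPM) and Itgb7 (212 to 256 CPM) of NFKBIE-ko cells in the PC lie above every other library.

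Cxcr4 (ENSMUSG00000045382; GRCm39 chr1:128515936-128520044, minus strand) is the receptor that holds B cells in bone marrow and other niches of stromal cells. Its level in the 4 NFKBIE-wt spleens was 409, 460, 430 and 250 CPM, and in the 4 NFKBIE-ko spleens 366, 460, 489 and 495 CPM. PC libraries held 369, 321, 365 and 322 CPM (NFKBIE-wt) and 212, 253, 211 and 257 CPM (NFKBIE-ko). Cultures held 199, 168 and 474 CPM (NFKBIE-wt) and 162, 155 and 172 CPM (NFKBIE-ko). In the PC every NFKBIE-ko value was under every NFKBIE-wt value, whereas the genotypes overlapped in the spleen and in vitro.

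Mean Cxcr4 in the PC was 344 ± 26.2 CPM for NFKBIE-wt and 233 ± 25.1 CPM for NFKBIE-ko cells (SD, n = 4), a log2 fold change of -0.57 (SE 0.09, adjusted p = 0.000518). In the spleen the log2 fold change was 0.22 (SE 0.19, adjusted p = 0.535), and 0.06 without replicate 4. The fall from spleen to PC was called in NFKBIE-ko cells (-0.95, SE 0.24, adjusted p = 0.00252), and in NFKBIE-wt cells without both doubted libraries (-0.32, SE 0.11, adjusted p = 0.0284) or with B-lineage scaling (-0.74, adjusted p = 0.0276), but not with all libraries and TMM (-0.17, adjusted p = 0.614). The difference of the genotype effect between spleen and PC was 0.78 (SE 0.34, adjusted p = 0.190), and 0.64 (SE 0.15, adjusted p = 0.0136) without both. NFKBIE-ko spleens exceeded NFKBIE-ko cultures by 1.48 on the log2 scale (SE 0.27, adjusted p = 0.00111). Ordered by group mean, the 5 upper groups each overlapped their neighbour, and NFKBIE-ko cultures lay below all libraries of the next group. Without the doubted libraries, both spleen groups overlapped, NFKBIE-wt spleens lay above NFKBIE-wt cells of the PC, these above NFKBIE-ko cells of the PC, and these above the cultures, whose genotypes overlapped.

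Cxcr5 (ENSMUSG00000047880; chr9:44423083-44473174, minus strand) directs B cells into follicles. Spleens held 75.7, 85.4, 76.4 and 33.2 CPM (NFKBIE-wt) and 109, 116, 93.5 and 116 CPM (NFKBIE-ko). In the PC the level was 185, 225, 233 and 236 CPM in NFKBIE-wt and 244, 249, 309 and 311 CPM in NFKBIE-ko libraries, and in vitro it was 30.1, 37.0 and 86.4 CPM against 50.9, 51.4 and 41.2 CPM. Genotypes did not overlap in the spleen or the PC. Every PC library lay above every spleen library, and every spleen library other than the doubted NFKBIE-wt replicate 4 lay above the cultures other than the doubted NFKBIE-wt replicate 3.

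From spleen to PC, Cxcr5 rose by 1.70 on the log2 scale in NFKBIE-wt (SE 0.28, adjusted p = 0.000119) and by 1.36 in NFKBIE-ko cells (SE 0.27, adjusted p = 0.00041), and without both doubted libraries by 1.49 and 1.35. Against the cultures, PC cells were higher by 2.10 in NFKBIE-wt (SE 0.31, adjusted p = 6.39e-05) and 2.54 in NFKBIE-ko cells (SE 0.32, adjusted p = 4.29e-06), and without both doubted libraries by 2.76 and 2.57. NFKBIE-ko exceeded NFKBIE-wt cells in the PC by 0.33 (SE 0.11, adjusted p = 0.0295), a call lost without NFKBIE-wt replicate 1 or 2 or NFKBIE-ko replicate 3 or 4 (adjusted p up to 0.0888). In the spleen the difference was 0.68 (SE 0.25, adjusted p = 0.154), and 0.46 (SE 0.12, adjusted p = 0.0364) without replicate 4.

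Ccr7 (ENSMUSG00000037944; chr11:99035022-99045911, minus strand) guides lymphocytes to T-cell zones and is among the genes known to be induced through NF-κB. The spleens held 17.2, 33.3, 16.7 and 25.9 CPM (NFKBIE-wt) and 63.1, 45.4, 44.9 and 56.7 CPM (NFKBIE-ko), without overlap. PC libraries held 15.4, 16.3, 23.8 and 30.4 CPM and 38.2, 25.4, 34.2 and 36.4 CPM, and here 1 NFKBIE-ko library lay within the NFKBIE-wt range. The cultures held 15.8, 78.5 and 17.9 CPM (NFKBIE-wt) and 78.4, 90.9 and 51.3 CPM (NFKBIE-ko). In vitro the NFKBIE-wt values were far apart, with replicate 2 at the level of the NFKBIE-ko cultures. T-cell marker sums of the spleens did not overlap between genotypes either. They were 141 to 378 CPM in NFKBIE-wt (326 to 378 CPM without replicate 4) and 470 to 571 CPM in NFKBIE-ko libraries. The part of T cells in the Ccr7 values was not tested.

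Mean Ccr7 in the spleen was 52.5 ± 8.94 CPM for NFKBIE-ko and 23.3 ± 7.91 CPM for NFKBIE-wt cells (SD, n = 4), a rise of 1.17 on the log2 scale (SE 0.24, adjusted p = 0.0280). The value without the doubted replicate 4 was 1.23 (SE 0.26, adjusted p = 0.0177), but the call was lost without NFKBIE-wt replicate 1 or 3 or NFKBIE-ko replicate 1, 3 or 4, with values of 1.04 to 1.24 and adjusted p of 0.0682 to 0.0966. In the PC the rise was 0.63 (SE 0.23, adjusted p = 0.0489), and 6 of 8 libraries left out in turn ended that call (adjusted p up to 0.117). In vitro the difference was 0.97 (SE 0.65, adjusted p = 0.581), 0.64 without the doubted replicate 3 and 2.12 (adjusted p = 0.0288) without NFKBIE-wt replicate 2. The group means ran from 73.6 CPM in NFKBIE-ko cultures to 21.5 CPM in NFKBIE-wt cells of the PC, with overlap between all neighbours. NFKBIE-ko cells of the PC were 1.13 lower than NFKBIE-ko cultures on the log2 scale (SE 0.42, adjusted p = 0.0319), a call lost on leaving out NFKBIE-ko in vitro replicate 1 or 2 or PC replicate 2, 3 or 4 (adjusted p up to 0.115).

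Ccr6 (ENSMUSG00000040899; chr17:8454869-8475973, plus strand), the receptor of CCL20, was close to the limit of detection. The spleens held 2, 3, 2 and 0 counts (NFKBIE-wt) and 11, 0, 1 and 4 counts (NFKBIE-ko), the PC libraries 0, 2, 0 and 2 and 0, 9, 1 and 11 counts, and the cultures 4, 1 and 3 and 3, 8 and 0 counts. It was at 0 in 6 of 22 libraries and reached 0.435 CPM at most, and a difference between groups was not detectable at this depth.

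Cxcr3 (ENSMUSG00000050232; chrX:100775141-100777875, minus strand) is best known from activated T and NK cells and from subsets of B cells. The spleens held 1.00, 0.324, 0.507 and 0.232 CPM (NFKBIE-wt) and 0.996, 1.77, 1.35 and 0.609 CPM (NFKBIE-ko). PC libraries held 0.728, 0.557, 0.624 and 1.24 CPM in NFKBIE-wt and 7.67, 9.61, 6.16 and 9.42 CPM in NFKBIE-ko cells. In vitro the level was 0.362, 0.614 and 0.786 CPM in NFKBIE-wt and 2.03, 2.54 and 1.32 CPM in NFKBIE-ko cultures. The 4 NFKBIE-ko libraries of the PC stood above the other 18, and in vitro, too, the genotypes did not overlap. These levels rest on 6 to 242 counts per library.

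The mean in the PC was 8.22 ± 1.62 CPM for NFKBIE-ko and 0.787 ± 0.310 CPM for NFKBIE-wt cells (SD, n = 4), 10.3-fold higher (log2 3.37, SE 0.27, adjusted p = 6.99e-06). Values of the spleen (1.18, SE 0.54, adjusted p = 0.228) and the cultures (1.72, SE 0.45, adjusted p = 0.465) did not pass, nor did they without the doubted libraries (0.94 and 2.00, adjusted p = 0.275 and 0.290). The effect of NFKBIE-ko was smaller in the spleen than in the PC by 2.19 on the log2 scale (SE 0.59, adjusted p = 0.0396), and by 2.41 (SE 0.56, adjusted p = 0.0133) without both doubted libraries. With single libraries left out, this difference stayed between -2.52 and -1.66, but the call was lost in 12 of 16 cases, for all but NFKBIE-wt spleen replicates 2 and 4, NFKBIE-ko spleen replicate 2 and NFKBIE-wt PC replicate 4. Within NFKBIE-ko cells the PC exceeded the spleen 6.93-fold (log2 2.79, SE 0.42, adjusted p = 1.98e-05) and the cultures 4.17-fold (log2 2.06, SE 0.45, adjusted p = 0.000985). Of the 14 tested markers of CD8+ cytotoxic and NK cells, which use Cxcr3, 10 were higher and 1 lower in NFKBIE-ko libraries of the PC (43.4% of all genes called). Of these markers 5 were higher in NFKBIE-ko spleens (5.43% of genes called), and 9 without replicate 4 (12.2%). In NFKBIE-ko spleens these markers summed to 72.5 to 166 CPM beside 0.609 to 1.77 CPM of Cxcr3, and in NFKBIE-ko libraries of the PC to 56.0 to 100.2 CPM beside 6.16 to 9.61 CPM. The myeloid markers summed to 103 to 401 CPM in NFKBIE-ko spleens and to 4059 to 5973 CPM in NFKBIE-ko libraries of the PC. From which cells the Cxcr3 counts came was not tested.

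S1pr1 (ENSMUSG00000045092; chr3:115504071-115508721, minus strand) lets lymphocytes leave lymphoid tissue. The spleens held 86.1, 108, 74.6 and 50.6 CPM (NFKBIE-wt) and 55.4, 129, 54.0 and 53.7 CPM (NFKBIE-ko). PC libraries held 125, 119, 125 and 149 CPM and 189, 153, 182 and 174 CPM. Cultures held 46.0, 93.2 and 131 CPM and 53.2, 69.4 and 42.2 CPM. NFKBIE-ko cells of the PC were highest, above all other libraries, and NFKBIE-ko spleen replicate 2 stood far above the 3 others of its group. In the order of the means, each of the other groups overlapped the next, but without the doubted libraries NFKBIE-wt cells of the PC lay above all remaining libraries of the next group, the NFKBIE-wt spleens.

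The PC means of S1pr1 were 174 ± 15.4 CPM for NFKBIE-ko and 130 ± 13.3 CPM for NFKBIE-wt cells (SD, n = 4), a rise of 0.42 on the log2 scale (SE 0.09, adjusted p = 0.00484). With B-lineage scaling the rise was 0.22 and was not called (adjusted p = 0.0836). In the spleen the difference was -0.13 (SE 0.33, adjusted p = 0.854), and -0.29 without the doubted replicate 4. From spleen to PC the receptor rose by 1.26 in NFKBIE-ko cells (SE 0.31, adjusted p = 0.00217), and differed by 0.70 in NFKBIE-wt cells (SE 0.30, adjusted p = 0.0819; 0.55 and adjusted p = 0.146 without both doubted libraries). The rise from cultures to PC was 1.67 in NFKBIE-ko cells (SE 0.34, adjusted p = 0.000615). Klf2, the transcription factor that drives S1pr1, and Cd69, which pulls the receptor from the surface, passed in none of the 3 genotype comparisons. Klf2 averaged 507 ± 201 CPM in NFKBIE-wt and 398 ± 69.4 CPM in NFKBIE-ko cells of the PC, and Cd69 averaged 145 ± 74.7 and 51.8 ± 29.3 CPM (log2 -1.48, adjusted p = 0.0516). Both were lower in NFKBIE-ko cultures (39.4 ± 3.74 and 22.3 ± 1.89 CPM, n = 3) than in NFKBIE-ko spleens (752 ± 118 and 286 ± 27.6 CPM, n = 4; spleen against cultures log2 4.26 and 3.68, adjusted p = 0.00283 and 0.00526).

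Itga4 (ENSMUSG00000027009; chr2:79085660-79163467, plus strand) encodes the α4 chain shared by both integrins named above. Its level in the spleens was 249, 145, 285 and 341 CPM (NFKBIE-wt) and 239, 237, 141 and 206 CPM (NFKBIE-ko). PC libraries held 361, 466, 461 and 306 CPM and 493, 438, 353 and 419 CPM, and cultures 428, 273 and 231 CPM and 174, 184 and 188 CPM. Genotypes overlapped in the spleen and the PC. In vitro all NFKBIE-ko cultures lay below the NFKBIE-wt cultures, with a log2 difference of -0.77 (SE 0.22, adjusted p = 0.506) that did not pass, nor did it without the doubted replicate 3 (-0.94, adjusted p = 0.235). Cells of the PC exceeded those of the spleen by 1.05 in NFKBIE-ko (SE 0.23, adjusted p = 0.000977) and by 0.64 in NFKBIE-wt cells (SE 0.23, adjusted p = 0.0374). The latter was 0.83 (SE 0.22, adjusted p = 0.00661) without both doubted libraries, 0.073 (adjusted p = 0.818) with B-lineage scaling, and was lost without NFKBIE-wt PC replicate 2 or 3 or spleen replicate 1 or 2 (0.46 to 0.63, adjusted p up to 0.0962). The NFKBIE-ko effect in the PC was 0.09 (SE 0.14, adjusted p = 0.664).

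Itgb7 (ENSMUSG00000001281; chr15:102124429-102140379, minus strand) encodes the β7 chain, which completes the gut-homing integrin α4β7. Spleens held 42.6, 72.7, 40.3 and 65.4 CPM (NFKBIE-wt) and 45.7, 99.1, 55.6 and 42.1 CPM (NFKBIE-ko). PC libraries held 76.4, 65.2, 55.5 and 73.8 CPM in NFKBIE-wt and 212, 256, 233 and 226 CPM in NFKBIE-ko cells. In vitro the NFKBIE-wt cultures held 37.5, 127 and 64.2 CPM and the NFKBIE-ko cultures 116, 115 and 96.5 CPM. NFKBIE-ko cells of the PC stood apart from all other groups, each of which overlapped its neighbour.

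The means in the PC were 232 ± 18.1 CPM for NFKBIE-ko and 67.7 ± 9.44 CPM for NFKBIE-wt cells (SD, n = 4), a 3.39-fold difference (log2 1.76, SE 0.11, adjusted p = 1.36e-06). In the spleen the difference was 0.13 (SE 0.30, adjusted p = 0.848; 0.23 without replicate 4) and in vitro 0.51 (SE 0.42, adjusted p = 0.625; 0.41 without replicate 3). The effect was smaller in the spleen than in the PC by 1.64 (SE 0.43, adjusted p = 0.0327), and by 1.53 (SE 0.45, adjusted p = 0.0438) without both doubted libraries. Leaving out single libraries gave -1.98 to -1.50 and ended the call in 11 of 16 cases, for all but NFKBIE-wt spleen replicates 1 and 3, NFKBIE-wt PC replicate 1, NFKBIE-ko PC replicate 1 and NFKBIE-ko spleen replicate 2 (adjusted p up to 0.0717). Within NFKBIE-ko cells the PC exceeded the spleen 3.82-fold (log2 1.93, SE 0.31, adjusted p = 3.98e-05) and the cultures 2.12-fold (log2 1.08, SE 0.33, adjusted p = 0.0114, lost at 1.001 without NFKBIE-ko culture replicate 3). The other partner of α4, Itgb1, rose in the PC as well, from 348 ± 23.0 CPM in NFKBIE-wt to 729 ± 49.6 CPM in NFKBIE-ko cells (n = 4; log2 1.05, SE 0.07, adjusted p = 2.89e-06).

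Cd44 (ENSMUSG00000005087; chr2:102641486-102732010, minus strand) is an adhesion receptor that leukocytes of many kinds express. The spleens held 357, 357, 360 and 262 CPM (NFKBIE-wt) and 245, 289, 236 and 234 CPM (NFKBIE-ko). PC libraries held 388, 393, 439 and 434 CPM and 374, 382, 392 and 418 CPM, and cultures 290, 181 and 408 CPM and 142, 146 and 153 CPM. In the spleen the doubted NFKBIE-wt replicate 4 (262 CPM) and NFKBIE-ko replicate 2 (289 CPM) overlapped, and the other values did not. In the PC the genotypes overlapped, and in vitro all NFKBIE-ko cultures lay below all NFKBIE-wt cultures.

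Between genotypes in the spleen, the log2 difference was -0.42 (SE 0.13, adjusted p = 0.104), and without replicate 4 Cd44 fell by 0.51 (SE 0.11, adjusted p = 0.0200), from 358 ± 1.52 CPM (SD, n = 3) to 251 ± 25.8 CPM (n = 4). In the PC it was -0.09 (SE 0.07, adjusted p = 0.330). In vitro NFKBIE-ko cultures stood at 0.500-fold of the NFKBIE-wt level (SE 0.29 on the log2 scale, adjusted p = 0.506), and the log2 difference was -0.67 (SE 0.20, adjusted p = 0.380) without replicate 3. From spleen to PC Cd44 rose by 0.64 in NFKBIE-ko cells (SE 0.16, adjusted p = 0.00283), and from cultures to PC by 1.41 in NFKBIE-ko (SE 0.18, adjusted p = 5.65e-06) and 0.50 in NFKBIE-wt cells (SE 0.18, adjusted p = 0.0362). The NFKBIE-wt value was 0.86 (SE 0.14, adjusted p = 6.37e-05) without both doubted libraries and 0.24 (adjusted p = 0.200) without NFKBIE-wt in vitro replicate 2, and the call was also lost without culture replicate 1 or PC replicate 3 or 4. The difference of the NFKBIE-ko effect between PC and cultures was 0.91 (SE 0.25, adjusted p = 0.0410), and 0.58 (SE 0.17, adjusted p = 0.0545) without both. That call held without NFKBIE-wt culture replicate 1 or 2 and was lost for each of the 12 other libraries left out in turn (adjusted p up to 0.123).

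Most receptors had a single main transcript. Cxcr5-201, Itga4-201 and Itgb7-201 took 96.9%, 99.5% and 96.9% of the counts of their gene, and Ccr7, Cxcr3 and S1pr1 had 1 transcript each in the table. Cxcr4-201 took 89.8% and Cxcr4-202 10.2% of Cxcr4. Tested by transcript, 5 of 21 receptor transcripts were called in the PC (13% of the transcripts tested), 0 of 17 in the spleen (0.354%) and 0 of 15 in vitro (0%). Among those called were Itgb7-201 (log2 1.83, SE 0.12, adjusted p = 0.000124) and Cxcr4-201 (-0.53, SE 0.09, adjusted p = 0.00763).

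Cd44 counts were divided between Cd44-207 (65.7%) and Cd44-203 (32.2%). The coding part of Cd44-207 has 14 exons and that of Cd44-203 has 9, and 5 exons of 636 bases in all, which lie in the variable stem of the protein outside the membrane, are in Cd44-207 only. The share of Cd44-207 averaged 60.9% to 66.6% per group, with libraries between 56.2% and 79.2%, and the genotypes overlapped in every compartment. Because both forms share most of their sequence, the division depends on the estimation of the authors' tool. The minor form Cd44-201 was lower in NFKBIE-ko cells of the PC (log2 -2.13, SE 0.33, adjusted p = 0.0045). The longest of the exons that tell the main forms apart is exon 10 (207 bases; GRCm39 chr2:102661675-102661881, minus strand), shown since reads from it can come from Cd44-207 but not from Cd44-203.
Cd44-207 exon 10: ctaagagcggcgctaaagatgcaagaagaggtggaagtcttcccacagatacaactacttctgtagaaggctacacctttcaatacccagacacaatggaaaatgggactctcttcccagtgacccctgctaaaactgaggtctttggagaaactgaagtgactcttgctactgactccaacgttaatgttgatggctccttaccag

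Promoters were searched because NFKBIE acts on NF-κB. RefSeq windows of GRCm38.p6, from 250 bases before to 50 bases after a gene's start, were at hand for 6 of the 9 receptors (7 windows). On either strand, the letters GGGANTTCC were in 1.68% and the looser GGGNNTTCC, which includes them, in 5.82% of all 32851 windows. Of the receptors' windows, 1 of the 2 for Ccr6 held a match to both, and the windows of Cxcr4, Itga4, Cd44, Itgb7 and Cxcr3 held neither. The 250 bases before the start are shown for Ccr6, with the matched letters in capitals, and for Itgb7 and Cxcr3, the receptors with the largest fold changes in the PC. The match starts 80 bases before the start of a gene that was barely detected, and absence of these letters speaks for these windows alone.
Ccr6 (GRCm38.p6 chr17:8242276-8242525, plus strand): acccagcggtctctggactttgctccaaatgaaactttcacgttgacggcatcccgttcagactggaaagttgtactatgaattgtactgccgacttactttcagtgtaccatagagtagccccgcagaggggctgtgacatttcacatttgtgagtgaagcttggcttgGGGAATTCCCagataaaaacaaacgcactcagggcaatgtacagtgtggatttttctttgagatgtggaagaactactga
Itgb7 (GRCm38.p6 chr15:102231936-102232185, minus strand): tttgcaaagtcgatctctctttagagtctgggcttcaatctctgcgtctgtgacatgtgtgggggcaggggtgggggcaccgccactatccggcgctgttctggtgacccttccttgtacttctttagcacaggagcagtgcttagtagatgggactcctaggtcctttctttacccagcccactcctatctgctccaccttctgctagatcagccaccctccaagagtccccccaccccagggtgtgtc
Cxcr3 (GRCm38.p6 chrX:101734148-101734397, minus strand): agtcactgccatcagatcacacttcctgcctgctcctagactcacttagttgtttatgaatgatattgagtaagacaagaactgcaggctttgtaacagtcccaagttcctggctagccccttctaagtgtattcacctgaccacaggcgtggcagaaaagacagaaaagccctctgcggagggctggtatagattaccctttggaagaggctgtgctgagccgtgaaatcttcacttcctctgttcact

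Other genes of the same pathway were described by lists, whose counts stand beside 5.43% of all genes called in the spleen (12.2% without replicate 4), 43.4% in the PC and 0.0341% in vitro. Of the receptors' ligands, 6 of 14 were tested in the spleen and 6 in the PC. Cxcl9 and Cxcl10, the ligands of CXCR3, were higher in NFKBIE-ko spleens (log2 4.70 and 1.62, adjusted p = 0.0142 and 0.0320; 4.29 and 1.45 without replicate 4), and 0 of 6 were lower. In the PC 3 were higher, among them Cxcl9 (6.44, adjusted p = 3.5e-05) and Fn1, fibronectin (1.86, adjusted p = 4.14e-06), and Vcam1 was lower (-1.19, adjusted p = 0.0105). Of 3 tested in vitro edgeR called 0.

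Among the other chemokine, S1P and oxysterol receptors, 5 of 18 were higher and 1 lower in NFKBIE-ko spleens, and 10 of 17 higher and 2 lower in the PC, with 0 of 15 called in vitro. Gpr183, which guides B cells by oxysterols to the outer follicle, had the lowest adjusted p of this list in both tissues. It was at 2.09, 1.38, 1.52 and 1.16 CPM in NFKBIE-wt and 16.0, 8.86, 11.2 and 9.06 CPM in NFKBIE-ko spleens, and at 5.50, 7.08, 6.52 and 8.04 against 42.5, 30.2, 32.6 and 32.4 CPM in the PC. The groups did not overlap in either (log2 2.87, SE 0.28, adjusted p = 0.00188, and 2.33, SE 0.14, adjusted p = 1.45e-06), and the spleen value was 2.76 without replicate 4. Cultures held 1.69, 2.53 and 1.46 CPM against 5.63, 7.47 and 4.30 CPM, also without overlap (log2 1.61, SE 0.34, adjusted p = 0.440; 1.46 without replicate 3). S1pr2, a receptor that confines B cells to germinal centers, was lower in NFKBIE-ko spleens (-1.78, adjusted p = 0.0417; -2.07 without replicate 4) and PC cells (-1.51, adjusted p = 0.000221).

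Of 16 other adhesion receptors, 2 were higher in NFKBIE-ko spleens, Itgal (log2 0.87, adjusted p = 0.0198; 0.91 without replicate 4) and its ligand Icam1 (1.43, adjusted p = 0.0337; 1.79 without it), and 10 were higher and 1 lower in the PC, with 0 of 13 called in vitro. Among 28 genes of receptor signalling and desensitization, 2 were higher and 1 lower in the spleen and 15 of 27 higher and 4 lower in the PC. Rgs13, which shortens the signal of chemokine receptors in B cells, was lower in NFKBIE-ko cells of both (-2.81 and -2.07, adjusted p = 0.0114 and 0.00011), and Grk5, a kinase that desensitizes receptors, was higher (1.27 and 1.19, adjusted p = 0.0317 and 5.42e-06). Without replicate 4 the spleen values were -3.07 for Rgs13 and 1.63 for Grk5. Of 10 genes that control S1P levels or transcription of the receptors, 0 were called in the spleen, and 3 were higher and 1 lower in the PC, where Foxo1 fell by 0.75 on the log2 scale (adjusted p = 0.00135). Without replicate 4 of the NFKBIE-wt spleens, the counts higher and lower in NFKBIE-ko spleens were 3 and 0 for ligands, 5 and 2 for other receptors, 2 and 1 for adhesion, 3 and 4 for signalling, and 1 and 2 for the controlling genes. EdgeR called 0 of 27 and 0 of 10 genes of these 2 lists in vitro.

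Genes with the profile most like that of each receptor over the 22 libraries were sought among 9787 genes by Pearson's r of log2(CPM + 1), as a description that the 6 groups and the cell makeup shared by all libraries shape. For Cxcr4 these were Dus3l (0.959), Desi1 (0.930) and Mfsd4a (0.929), and for Cxcr5 Lifr (0.971), Pltp (0.970) and Pla2g7 (0.968). Ccr7 was closest to Rgs19 (0.875), Cd83 (0.871) and Mical3 (0.867), and Cxcr3 to Capn2 (0.953), Padi2 (0.946) and Suox (0.934). S1pr1 was closest to Slc44a2 (0.957), Vim (0.939) and Phf1 (0.937). For the integrin chains these were Spag9 (0.909), Pde3b (0.892) and Nbeal1 (0.887) with Itga4, and Anxa6 (0.959), Evi2a (0.950) and Unc13d (0.929) with Itgb7. Cd44 was closest to Ripor2 (0.966), Ppp2r5a (0.950) and Mtmr10 (0.949). Cd83 is a surface protein of activated B cells.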

How the data were processed

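RNA was sequenced from 22 samples in 6 groups, taken from GEO's titles and source names. The authors quantified transcripts with Salmon 1.8 on GRCm39 and deposited expected counts, estimated per transcript and not normalized, for 62492 transcripts. All 22 columns were used. Of the transcripts, 62147 matched GENCODE of the same build (17023 genes); the others, with 0.619% of all counts, were not used. Counts were summed per gene and rounded to whole counts.

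Genes were tested with edgeR 4.0.16 (filterByExpr, TMM, robust quasi-likelihood fits) in R 4.3.3. Genotypes were compared in a fit per compartment, and compartments and differences of effects in 1 fit of 22 samples. A call had a Benjamini-Hochberg adjusted p below 0.05 over all genes tested. DESeq2 1.42.0 was an alternative, and figures used Python 3.11.15 with matplotlib 3.10.9. Alternatives were other size factors, no filter, protein-coding transcripts only, scaling to B-lineage markers, other sets of samples, the replicate block and single libraries left out. The fits were tested on simulated data.

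Named genes were the 9 receptors, the 3 genes with the highest r to each receptor of at least 1 CPM (among genes of at least 5 CPM), up to 4 called genes of lowest adjusted p per list, and Itgb1, Klf2 and Cd69. The members and lists were chosen with earlier results of these data known. Replicate pairs differed by more than sampling noise (chi-square per degree of freedom of 6.85 or more over 30 pairs). The p-values of the cultures measure the spread between 3 cultures per genotype, and those of the tissues between samples whose mice were not identified. A lesion of the line and some genes of these lists are not reported here.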

Additional observations from a re-analysis of the deposited data

Results flagged for a closer look

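In 36 groups of 4 values (9 receptors in the spleen and PC groups), 2 held a library far from the others, where chance gives about 1 in 20. S1pr1 in NFKBIE-ko spleen replicate 2 was at 129 CPM, against 53.7 to 55.4 CPM in the 3 others. Cd44 in the library labelled NFKBIE-wt spleen replicate 4, which goes against its label, was at 262 CPM, against 357 to 360 CPM.

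With all 22 libraries, the test of whether the effect of NFKBIE-ko differed between compartments called 3 receptors. The difference of spleen minus PC was -2.19 (log2) for Cxcr3 and -1.64 for Itgb7 (2 of 8, against 4.92% of genes). That of PC minus in vitro was 0.91 for Cd44 (1 of 8, against 4.8%). Single libraries left out ended these calls in 12 of 16, 11 of 16 and 12 of 14 cases. Cd44 was not called without both doubted libraries either.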

How the results depend on the processing

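Cxcr3 and Itgb7, higher in NFKBIE-ko cells of the PC, kept their calls under every alternative run, with log2 values of 3.23 to 3.67 and 1.67 to 1.83 when single libraries were left out. Over the receptors and comparisons, 1401 values under alternatives kept their direction and side of the threshold, 92 lost a call, 42 gained one and 41 changed sign. With 3 or 4 libraries per group and a common biological coefficient of variation of 0.295 for spleens, 0.148 for PC cells and 0.284 for cultures, precision was lowest in the spleen and the cultures, and Ccr6 and Cxcr3 were limited by counts. Except where libraries left out or genes dropped show it, the cause of a change was not tested.

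The number of receptors called between genotypes in the spleen, 1, became 2 with DESeq2, 0 with all 22 samples in 1 fit and 0 to 3 with single libraries left out. In the PC, 6 became 2 with all 22 samples in 1 fit (Cxcr3 and Itgb7). In vitro, 0 became 1 with DESeq2 and with all 22 samples, and 0 to 2 with libraries left out. For PC against spleen in NFKBIE-wt cells, 2 became 1 to 3, for spleen against in vitro 0 became 0 to 3, and for PC against in vitro 2 became 1 to 4 (1 with B-lineage scaling and with only the 2 groups). In NFKBIE-ko cells 7 calls of PC against spleen became 4 with B-lineage scaling, while all genes called went from 6922 to 10161. For the differences of effects, spleen minus PC moved from 2 to 1 without the filter and to 0 to 3 with libraries left out, spleen minus in vitro from 0 to 0 to 2, and PC minus in vitro from 1 to 0 without the filter, 0 with protein-coding transcripts, 0 with B-lineage scaling and 0 to 3 with libraries left out.

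Residuals of same-numbered libraries correlated at -0.329 to 0.0348 between genotypes for spleens, -0.244 to 0.0559 for PC cells and -0.0121 to 0.175 for cultures. Between spleen and PC, the correlations were -0.170 to 0.232 in NFKBIE-wt cells and 0.166, -0.0558, 0.172 and 0.247 in NFKBIE-ko cells. Since not every pair passed 0.1, the numbers were not taken as pairs. Both tissues came from the 5 recipients of each genotype, with 4 libraries per tissue. If the 4 libraries of a tissue came from different mice, some mice gave both a spleen and a PC library. The tests of PC against spleen leave such sharing out, and the rule of 0.1 cannot exclude it. With the replicate block, calls between genotypes in the spleen went to 0, calls of PC against spleen in NFKBIE-wt cells to 1 and of PC against in vitro to 0. Under the replicate block Cxcr5 in vitro was at 0.059 and S1pr1, spleen against in vitro in NFKBIE-wt cells, at 0.10, both with another sign than without it.

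B-lineage scaling turned the sign of S1pr1 between genotypes in the spleen (0.060) and Itga4 in the PC (-0.11). For PC against spleen in NFKBIE-wt cells it turned Itgb7 (-0.24) and Cd44 (-0.26), and in NFKBIE-ko cells Cd44 (-0.36). For spleen against in vitro it turned Cxcr3 (0.11) and S1pr1 (0.11) in NFKBIE-wt and Ccr7 (0.024) in NFKBIE-ko cells, and for PC against in vitro Cxcr4 in NFKBIE-wt (-0.030) and NFKBIE-ko cells (-0.0098). For spleen minus PC it turned Itga4 (0.023) and Cd44 (0.10).

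All genes called between genotypes numbered 663 in the spleen (90 with the replicate block, 1630 with DESeq2, 2120 with all 22 samples, 133 to 1517 with libraries left out) and 4 in vitro (0, 222, 276 and 0 to 785), and 5488 in the PC (3194 with all 22 samples). PC against in vitro in NFKBIE-wt cells went from 4619 to 2688 with only the 2 groups and to 15 with the replicate block. The ranges that follow are for single libraries left out. In NFKBIE-wt cells, 4802 genes for PC against spleen became 3794 to 5016, and 0 for spleen against in vitro became 0 to 769. For spleen minus PC 666 became 343 to 1069 (3036 with B-lineage scaling). For spleen minus in vitro 60 became 5 to 696, and for PC minus in vitro 650 became 53 to 1156 (178 with B-lineage scaling).

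With libraries left out, these values, none of them called with all libraries, crossed 0. Between genotypes, S1pr1 in the spleen lay between -0.56 and 0.054, Itgb7 in the spleen between -0.21 and 0.30, Itga4 in the PC between -0.022 and 0.17 and Cxcr5 in vitro between -0.39 and 0.52. In NFKBIE-wt cells, Ccr7 lay between -0.33 and 0.12 for PC against spleen and between -1.17 and 0.34 for PC against in vitro, and Itgb7 between -0.50 and 0.41 for the latter. For spleen against in vitro in NFKBIE-wt cells, Ccr7 lay between -1.05 and 0.46, Cxcr3 between -0.72 and 0.35, S1pr1 between -0.49 and 0.39, Itga4 between -0.60 and 0.017, Itgb7 between -0.79 and 0.12 and Cd44 between -0.064 and 0.64, and S1pr1 in NFKBIE-ko cells between -0.015 and 0.61. For spleen minus in vitro, Cxcr5 lay between -0.048 and 1.05 and Ccr7 between -0.95 and 0.60. For PC minus in vitro, Cxcr4 lay between -0.40 and 0.49, Cxcr5 between -0.18 and 0.71 and Ccr7 between -1.48 and 0.037.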
